A study of Mus musculus with 1 sample.

Results

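The vacuolar H+-ATPase (V-ATPase) is a proton pump whose membrane-embedded a subunit is encoded in the mouse by 4 genes, Atp6v0a1, Atp6v0a2, Tcirg1 and Atp6v0a4. All 4 of the 32285 genes counted were followed here. They were chosen as a gene family, with earlier results of these data known. The levels of the family were compared between the cell groups of an MC38 tumor to learn which a subunit prevailed in each. MC38 is a mouse colorectal carcinoma cell line, and the study asked how Atp6v0a1 of the tumor cells affects the surrounding immune cells. The library came from MC38 tumors grown under the skin of female C57BL/6J mice of 4 to 6 weeks, and its genotype is given as WT. Cells from 5 control tumors had been mixed in equal proportions before sequencing, so the data are 1 library without replicates, from which no test between animals can be made. The label does not name an shRNA, and the library was taken as the pool of tumors with the control hairpin shNTC. The pool of tumors with the Atp6v0a1 hairpin was not analysed here.

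The pump couples ATP hydrolysis by its cytosolic V1 sector to proton movement through the V0 sector in the membrane, and it acidifies endosomes, lysosomes and secretory granules. The a subunit lines the proton path next to the ring of c subunits and carries the signals that place the pump on a given membrane. Atp6v0a1 is best known from synaptic vesicles and endosomes, Atp6v0a2 from the Golgi apparatus and endosomes, Tcirg1 (the a3 isoform) from lysosomes and the ruffled border of osteoclasts, and Atp6v0a4 from the acid-secreting intercalated cells of the kidney. In macrophages the pump acidifies phagosomes, and in T cells a shorter product of the Tcirg1 gene named TIRC7 has been described, which 3' counts do not separate from the full-length transcript.

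The library held 106631000 unique molecular identifiers (UMIs, each counting 1 captured transcript molecule) in 5307 called cells. After limits on mitochondrial UMIs and detected genes and the removal of 172 likely doublets, 4468 cells were kept, with a median of 10542 UMIs per cell. The label names the sample as epithelial cells, yet the largest group of cells held only 6 UMIs of Krt8, 7 of Epcam and 0 of Krt18 in 2182 cells. This group is called here by the genes that set it apart, Shisal2b, which the study lists among its markers of the major cell groups, and Rhox5, because fewer than 3 markers of the tumor list were raised in each of its clusters. The other groups used were 1264 macrophage-like, 240 monocyte-like, 166 T and NK-like, 45 dendritic-like and 34 fibroblast-like cells, and 438 cells stayed unnamed. Genes of pericytes, the contractile cells of small vessels, were among those that led the fibroblast-like group (Rgs5, Higd1b and Cox4i2).

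The sites of the study's mouse silencing oligos show how far the members differ in sequence where they were targeted. They are written 5′ to 3′ in the sense of the mRNA, and the reference was the GENCODE M21 annotation on GRCm38. The hairpin shv0a1-1 matched Atp6v0a1 at chr11:101026686-101026706 on the plus strand, in the coding part of exon 6 of 22. The first line is that site, and the next lines are the closest stretches of the other members, with their mismatches to the site in capitals.
shv0a1-1 site in Atp6v0a1: ggatccagacctgttggaaga
closest in Tcirg1: gCCtccagCcctgttggCagT
closest in Atp6v0a4: gACtcTagaGAAgttggaagG
closest in Atp6v0a2: gTatccaAacACgGCTgaGga
Tcirg1 differed from the site at 5 of 21 bases, Atp6v0a4 at 7 and Atp6v0a2 at 8. The site lay 3382 bases before the transcript's end, so counts from the 3' end do not cover it.

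A second hairpin, shv0a1-2, is listed for Atp6v0a1 but matched Atp6v0a2 exactly, at chr5:124636028-124636048 on the plus strand in the coding part of exon 3 of 20. Among the 141767 transcripts searched no other gene held it, and the closest stretch of any Atp6v0a1 transcript had 8 mismatches, in capitals below.
shv0a1-2 site in Atp6v0a2: ggaaatcaccagagctgatat
closest in Atp6v0a1: AgaGatAaGGaAagctAaCat
The study notes that shv0a1 in its text refers to shv0a1-1 except where it says otherwise. The other 4 oligos matched the gene they are listed for. One pair lay in Atp6v0a2, in exon 4 at chr5:124637517-124637537 and across exons 7 and 8 at chr5:124645034-124645949, and the other pair in Tcirg1 on the minus strand, in exon 11 of 20 at chr19:3899038-3899058 and across exons 2 and 3 at chr19:3904287-3904596.
siv0a2-1 site in Atp6v0a2: gagaagtcaccaagaacaagg
siv0a2-2 site in Atp6v0a2: agaagatatgtgactgttacc
siTcirg1-1 site in Tcirg1: cggactgctcatgtttctctt
siTcirg1-2 site in Tcirg1: gagttcagagacctcaacgaa
Over all 6 oligos and the members they did not match, 18 pairs, the closest stretch held between 4 and 8 mismatches. The encoded proteins have 838 residues for Atp6v0a1, 856 for Atp6v0a2, 834 for Tcirg1 and 833 for Atp6v0a4. Atp6v0a1 and Atp6v0a4 were the closest pair, with 63.8% identical residues in the aligned part. Atp6v0a1 shared 55.9% with Atp6v0a2 and 49.8% with Tcirg1, and Atp6v0a2 shared 54.7% with Tcirg1.

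The genes lie apart, Atp6v0a1 on the plus strand at chr11:101009452-101063719, Atp6v0a2 on the plus strand at chr5:124628576-124724455, Tcirg1 on the minus strand at chr19:3896050-3907133 and Atp6v0a4 on the minus strand at chr6:38048483-38124586. The last exon of Atp6v0a2, where 3' reads fall, overlaps the antisense gene 4930404A12Rik. The chemistry keeps the strand of a read, and how the counting used it is not given in the sources used here.

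In all called cells Tcirg1 was counted 5748 times, Atp6v0a2 1719 times, Atp6v0a1 971 times and Atp6v0a4 5 times. Tcirg1 therefore led the family and Atp6v0a4 was close to undetected. Each molecule was counted once whatever its length, but genes differ in how well their 3' ends are captured, so a share of UMIs is not a share of transcripts. Levels are given below as UMIs per 1000000 UMIs of a group (CPM) with exact 95% Poisson intervals, which cover counting error only.

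Tcirg1, the lysosomal a subunit, was highest in the macrophage-like and monocyte-like cells. Macrophage-like cells held 1569 UMIs or 114 CPM (108 to 120), and monocyte-like cells 134 UMIs or 98.9 CPM (82.9 to 117). Dendritic-like cells followed with 21 UMIs or 49.6 CPM (30.7 to 75.9) and the Shisal2b- and Rhox5-high cells with 3013 UMIs or 38.5 CPM (37.1 to 39.9). Fibroblast-like cells held 17 UMIs or 34.6 CPM (20.2 to 55.5) and T and NK-like cells 21 UMIs or 26.1 CPM (16.2 to 39.9). Along this order the macrophage-like and monocyte-like levels did not differ beyond counting error, with a monocyte to macrophage ratio of 0.868 (0.722 to 1.04). The step from monocyte-like to dendritic-like cells did, at 1.99-fold (1.25 to 3.33), whereas the neighbours from dendritic-like to T and NK-like cells had intervals that included 1. Macrophage-like cells exceeded the Shisal2b- and Rhox5-high cells 2.96-fold (2.78 to 3.15), the fibroblast-like cells 3.29-fold (2.05 to 5.66) and the T and NK-like cells 4.36-fold (2.85 to 7.07). The last 2 ratios depended on how cells were grouped and weighted. In groups taken cell by cell from single markers the macrophage group exceeded the fibroblast group 1.74-fold and the T and NK group, at 44.1 CPM, 1.87-fold. Of the cells of that fibroblast group 82.2% belonged to the Shisal2b- and Rhox5-high clusters and 4.6% to the fibroblast-like cells. Its ratio therefore says little about fibroblast-like cells. With each cell weighted equally the ratios were 2.48 and 2.17, and the T and NK-like level was 57.5 CPM.

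Atp6v0a2, the Golgi and endosome a subunit, showed another order, with its lowest level in the Shisal2b- and Rhox5-high cells. Fibroblast-like cells held 21 UMIs or 42.8 CPM (26.5 to 65.4), which came from 10 cells. Dendritic-like cells held 18 UMIs or 42.5 CPM (25.2 to 67.2) and T and NK-like cells 32 UMIs or 39.8 CPM (27.2 to 56.2). Macrophage-like cells held 405 UMIs or 29.4 CPM (26.6 to 32.4), monocyte-like cells 36 UMIs or 26.6 CPM (18.6 to 36.8) and Shisal2b- and Rhox5-high cells 955 UMIs or 12.2 CPM (11.4 to 13). Compared in pairs, the macrophage-like, monocyte-like, T and NK-like and fibroblast-like cells had intervals that included 1 for Atp6v0a2, and each exceeded the Shisal2b- and Rhox5-high cells. The ratio to that group was 3.51 (2.16 to 5.39) in fibroblast-like, 3.26 (2.22 to 4.64) in T and NK-like, 2.41 (2.14 to 2.71) in macrophage-like and 2.18 (1.52 to 3.04) in monocyte-like cells. The groups differed in depth, which these ratios do not match, and levels by depth are given below. For the fibroblast-like cells it was 1.83 with each cell weighted equally and 1.43 in groups from single markers, both under 2-fold. For the T and NK-like cells it was 3.24 and 2.11. The fibroblast group from single markers was 82.2% Shisal2b- and Rhox5-high cells, so its ratio of 1.43 compares largely the same kind of cells.

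Atp6v0a1, the gene the study silenced, was the least abundant of the 3 detected members in each of the 6 groups. Its level was 14.8 CPM (12.9 to 17.0, 204 UMIs) in macrophage-like, 13.3 CPM (7.87 to 21, 18 UMIs) in monocyte-like and 7.71 CPM (7.10 to 8.35, 603 UMIs) in Shisal2b- and Rhox5-high cells. Macrophage-like cells exceeded the Shisal2b- and Rhox5-high cells 1.92-fold (1.63 to 2.26) and monocyte-like cells did so 1.72-fold (1.01 to 2.75), without matching for depth. Dendritic-like cells held 3 UMIs, fibroblast-like cells 2 and T and NK-like cells 1. That 1 UMI put the T and NK-like level at 0.161 of the Shisal2b- and Rhox5-high level (0.00408 to 0.903). It came from a cell of 20543 UMIs, against a median of 3997 in the T and NK-like group. Shisal2b and Rhox5 themselves were found in T and NK-like cells at 8.07% to 15.1% of their level in the Shisal2b- and Rhox5-high group. The source of the UMI was not tested, and 1 UMI does not settle whether T and NK-like cells express Atp6v0a1.

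Atp6v0a4, the kidney a subunit, was counted 4 times in the Shisal2b- and Rhox5-high cells, in 4 cells and at 0.0511 CPM. No UMI was found in any other group, which allows up to 0.218 CPM in macrophage-like and up to 3.73 CPM in T and NK-like cells. Among the 10 pairs of the 5 groups other than the dendritic-like, the interval of the ratio excluded 1 in 6 for Tcirg1, in 5 for Atp6v0a1 and in 4 for Atp6v0a2.

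**Figure D1:**
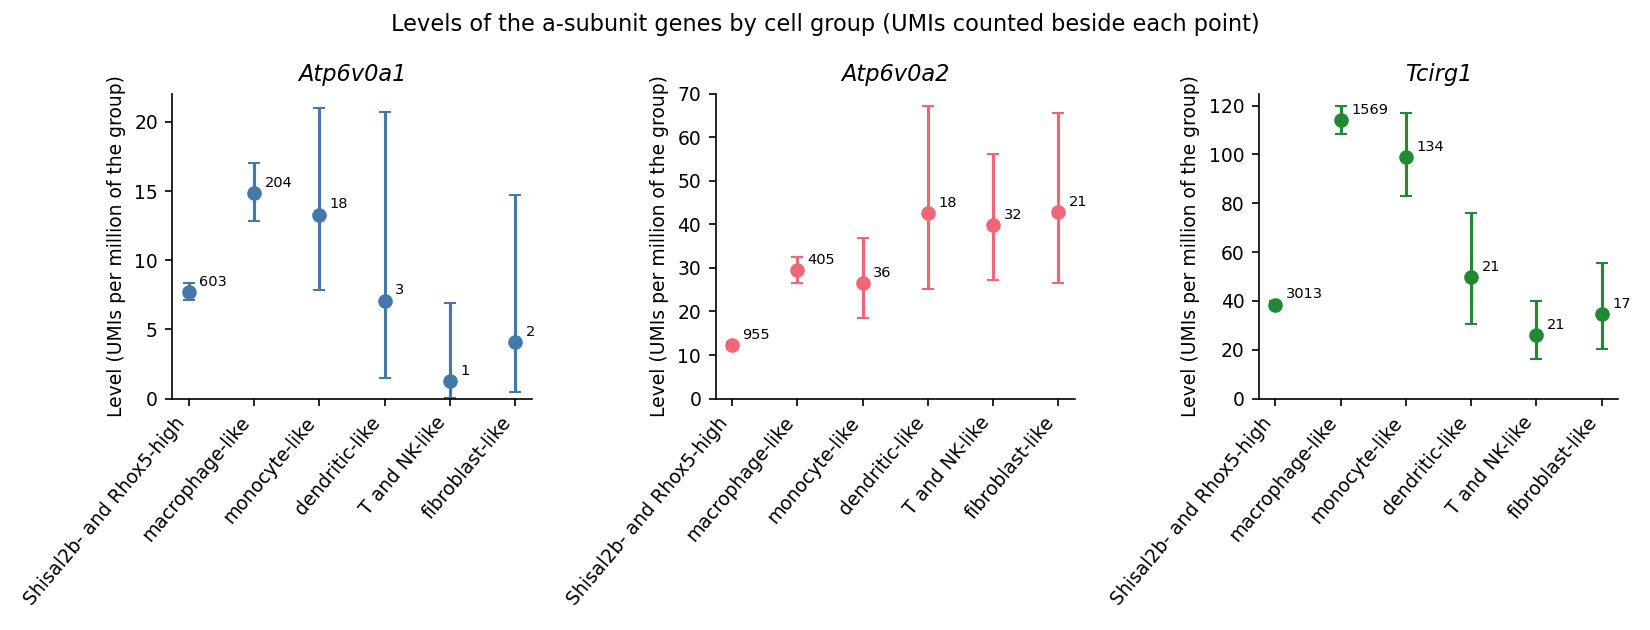
Level of Atp6v0a1, Atp6v0a2 and Tcirg1 (y axis, UMIs per 1000000 of the group, linear and from 0, with a different scale for each gene) in 6 cell groups of 1 library, with exact 95% Poisson intervals and the UMIs counted beside each point. Tcirg1 stands highest in macrophage-like (114) and monocyte-like (98.9) cells, and Atp6v0a2 is lowest in the Shisal2b- and Rhox5-high cells (12.2).

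RNA that leaks from 1 cell type into droplets of another was read from genes of the source cells. In the Shisal2b- and Rhox5-high cells, 7 macrophage genes (among them Lyz2, C1qa and Cd68) stood at 0.423% to 0.644% of their macrophage-like level, and Tcirg1 at 33.8%. In fibroblast-like cells the same genes stood at 1.09% to 3.06%. In T and NK-like cells their median was 1.74%, and the highest were Tyrobp at 23.8% and Fcer1g at 15.7%, both of which NK cells use as signalling adaptors. In the other direction, Shisal2b and Rhox5 stood at 5.36% to 6.62% of their level in the Shisal2b- and Rhox5-high group in macrophage-like, 7.87% to 11.7% in monocyte-like, 8.07% to 15.1% in T and NK-like and 8.57% to 20.3% in fibroblast-like cells. Tcirg1 stood at 0.678 of its level in that group in T and NK-like and at 0.900 in fibroblast-like cells, and the part of such RNA in these levels was not tested. Depth moved with the levels within a group. Over 4 bins of equal cell number, from the shallowest to the deepest Shisal2b- and Rhox5-high cells, Tcirg1 stood at 80.0, 53.9, 40.2 and 32.8 CPM, and in macrophage-like cells at 155, 124, 113 and 100 CPM. The part of depth in the difference between groups was not tested. Shisal2b- and Rhox5-high cells of 7562 to 31228 UMIs held 53.9 CPM (49.5 to 58.6), and macrophage-like cells of 6766 to 10255, 10256 to 13963 and 13966 to 38662 UMIs held 124, 113 and 100 CPM, the last with an interval of 92.2 to 109. For Atp6v0a2 the values in the same bins were 14.0 CPM (11.8 to 16.4) against 30.5, 25.6 and 29.8 CPM. For Atp6v0a1 they were 11.2 CPM (9.27 to 13.5) against 13 (9.06 to 18.1), 12.5 (9.21 to 16.7) and 17.5 CPM (14.3 to 21.3), so the levels of Atp6v0a1 lay within counting error of each other in 2 of these 3 comparisons. Shisal2b- and Rhox5-high cells of 511 to 7482 UMIs held 24.7 CPM of Atp6v0a2 (16.7 to 35.3) and 14.8 CPM of Atp6v0a1 (8.79 to 23.4). Their Tcirg1 interval was 64.8 to 97.5 CPM. The monocyte-like intervals (median depth 4492 UMIs) overlapped these for all 3 genes. The T and NK-like interval (median 3997 UMIs) overlapped for Atp6v0a2, but lay lower for Atp6v0a1 and Tcirg1.

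The makeup of the family differed between the groups. Tcirg1 held 65.9% of the a-subunit UMIs of Shisal2b- and Rhox5-high cells (exact binomial interval 64.5 to 67.2, 4575 UMIs), 72.0% in macrophage-like (70.1 to 73.9, 2178 UMIs) and 71.3% in monocyte-like cells (64.2 to 77.6, 188 UMIs). In T and NK-like cells it held 38.9% (25.9 to 53.1, 54 UMIs), in fibroblast-like cells 42.5% (27.0 to 59.1, 40 UMIs) and in dendritic-like cells 50% (34.2 to 65.8, 42 UMIs). Atp6v0a2 made up most of the remainder, with 59.3% in T and NK-like, 52.5% in fibroblast-like, 42.9% in dendritic-like, 20.9% in Shisal2b- and Rhox5-high, 19.1% in monocyte-like and 18.6% in macrophage-like cells. The share of Atp6v0a1 was 13.2% in Shisal2b- and Rhox5-high, 9.57% in monocyte-like and 9.37% in macrophage-like cells. It was 7.14% in dendritic-like cells on 3 UMIs and 5% in fibroblast-like cells on 2. In T and NK-like cells it was 1.85% on 1 UMI, with an interval (0.0469 to 9.89) that included the macrophage-like and monocyte-like shares.

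As a ratio, 3.15 Tcirg1 UMIs (2.93 to 3.40) were counted for each Atp6v0a2 UMI in Shisal2b- and Rhox5-high cells, 3.87 (3.47 to 4.33) in macrophage-like and 3.72 (2.56 to 5.54) in monocyte-like cells. The ratio was 1.17 (0.592 to 2.32) in dendritic-like, 0.810 (0.401 to 1.61) in fibroblast-like and 0.656 (0.360 to 1.17) in T and NK-like cells. Within each of these 3 groups the interval included 1, so which of the pair led could not be told at this depth. The difference between groups was larger than counting error. The odds of a UMI being Tcirg1 and not Atp6v0a2 were 5.90-fold higher in macrophage-like than in T and NK-like cells (3.26 to 10.9) and 4.81-fold higher in Shisal2b- and Rhox5-high than in T and NK-like cells (2.67 to 8.81). Against fibroblast-like cells the same odds were 4.78-fold higher in macrophage-like (2.38 to 9.75) and 3.90-fold higher in Shisal2b- and Rhox5-high cells (1.95 to 7.90). Against dendritic-like cells they were 3.32-fold higher in macrophage-like cells (1.65 to 6.61). Macrophage-like and Shisal2b- and Rhox5-high cells differed less, by 1.23-fold (1.08 to 1.40), and fibroblast-like and T and NK-like cells had an interval of 0.487 to 3.11, which included 1.

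The lower Tcirg1 share of the smaller groups depended on how cells were grouped and weighted. When cells were assigned by single markers that the study lists (here Cd3e or Ncr1 was taken for T and NK cells and Col5a1 for fibroblasts), Tcirg1 held 59.9% in the T and NK group and 65.4% in the fibroblast group. Of the 544 cells of that Col5a1 group, 82.2% belonged to the Shisal2b- and Rhox5-high clusters, and of the 134 cells of the T and NK group 17.2% did. With each cell weighted equally the shares were 54.4% in T and NK-like and 62.6% in fibroblast-like cells. The share was 36.4% without the shallower of the pair of T and NK-like clusters, a setting added once the data had been seen.

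**Figure D2:**
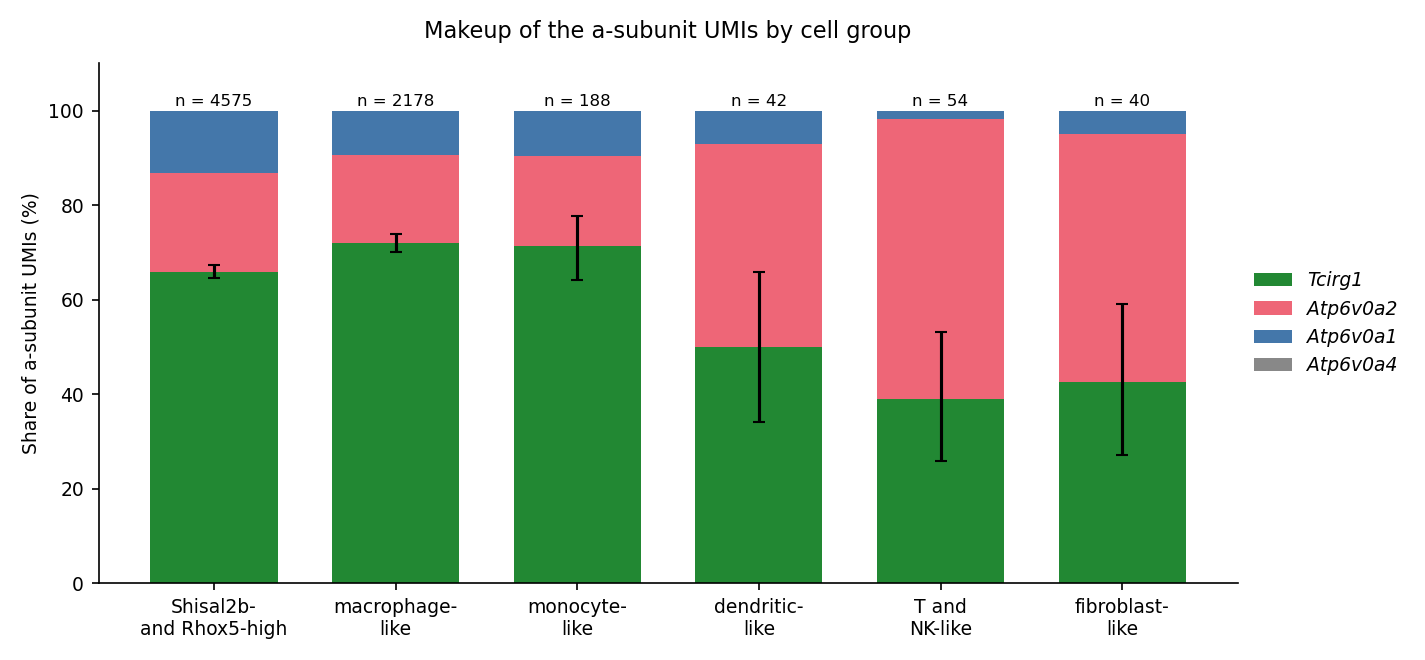
Share of Tcirg1, Atp6v0a2, Atp6v0a1 and Atp6v0a4 among the a-subunit UMIs (y axis, percent) in 6 cell groups, with the number of a-subunit UMIs above each bar and exact 95% binomial intervals for Tcirg1. Tcirg1 holds 65.9% to 72.0% in the 3 groups at the left and 38.9% to 50% in the 3 at the right, whose intervals are wide.

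Within single cells the members were often found together where depth was high. In the Shisal2b- and Rhox5-high group, with a median of 31191.5 UMIs per cell, 58.8% of cells had a Tcirg1 UMI, 30.5% an Atp6v0a2 UMI and 22.4% an Atp6v0a1 UMI. At least 2 members were counted in 749 cells (34.3%) and 3 in 191. Of the 488 cells with Atp6v0a1, 77.3% also had Tcirg1. In macrophage-like cells, with a median of 10255.5 UMIs, the shares were 66.0%, 25.2% and 14.4%, at least 2 members were counted in 329 cells (26.0%), and 72.5% of the 182 cells with Atp6v0a1 also had Tcirg1. Most cells in which Atp6v0a1 was counted thus also held Tcirg1 in both groups. The cells with Atp6v0a1 were deeper than their groups, with medians of 51751.5 UMIs in Shisal2b- and Rhox5-high and 13388 in macrophage-like cells. The part of depth in this overlap was not tested. In T and NK-like cells, with a median of 3997 UMIs, 26 cells had Atp6v0a2 and 17 had Tcirg1, and 5 cells had both.

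The shares of cells follow depth, so each cell was also thinned, in 1 random draw each, to 1000 and to 2000 UMIs. At 1000 UMIs 9.51% of 1262 macrophage-like, 9.24% of 238 monocyte-like and 5.01% of 1938 Shisal2b- and Rhox5-high cells had a Tcirg1 UMI, after 2, 2 and 244 shallower cells had been left out. In T and NK-like cells the share was 4.48% of 134 cells with 32 left out, and no fibroblast-like cell of 31 held one, which allows up to 9.68%, whereas 5 of 30 (16.7%, 5.64% to 34.7%) did at 2000 UMIs. For Atp6v0a2 the thinned shares were 3.73% in T and NK-like, 2.85% in macrophage-like, 2.52% in monocyte-like and 1.5% in Shisal2b- and Rhox5-high cells. For Atp6v0a1 they were 1.58% in macrophage-like, 1.68% in monocyte-like and 0.826% in Shisal2b- and Rhox5-high cells. At 2000 UMIs Atp6v0a1 was found in 2.25% (1.5% to 3.23%) of macrophage-like and 2.18% (1.56% to 2.95%) of Shisal2b- and Rhox5-high cells, so no difference between these groups was detectable for it. Tcirg1 was found there in 21% (18.8% to 23.4%) against 8.75% (7.5% to 10.1%) and Atp6v0a2 in 5.3% (4.12% to 6.69%) against 2.56% (1.88% to 3.38%), so both were still found in more macrophage-like cells.

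The 5 clusters of Shisal2b- and Rhox5-high cells differed in level. The genes of the V-ATPase had been kept out of the clustering. The largest clusters, 748 cells led by H19 and Ogn and 694 cycling cells led by Top2a and Prc1, held 38.5 and 38.3 CPM of Tcirg1 and 12.8 and 12.5 CPM of Atp6v0a2. Atp6v0a1 was higher in the first, at 9.35 CPM (8.17 to 10.6) against 6.93 CPM (6.16 to 7.77) in the cycling cluster. A shallow cluster of 318 cells, led by the globin gene Hbb-bs and the immunoglobulin gene Igkc, had a median of only 812.5 UMIs per cell and held 55.0 CPM of Tcirg1. The lowest levels were those of 294 cells led by Klk7 and Mrps6, with 28.4 CPM of Tcirg1, 6.17 CPM of Atp6v0a2 and 6.17 CPM of Atp6v0a1. The highest were those of 128 cells whose leading genes included Malat1 and Egr1, with 122, 38.9 and 18.3 CPM.

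Between these extremes, chosen after their values were seen, Tcirg1 differed 4.31-fold (3.41 to 5.41), Atp6v0a2 6.31-fold (4.0 to 9.82) and Atp6v0a1 2.97-fold (1.59 to 5.25). RNA quality moved with them. The Klk7 cluster had 0.319% mitochondrial UMIs and 423 CPM of the nuclear RNA Malat1, and the Malat1 and Egr1 cluster 9.83% and 60003 CPM, and their part in the levels was not tested. The Tcirg1 share ran from 63.5% to 71.5% over the 5 clusters. The other members were less even, with 1.0 Atp6v0a2 UMI for each Atp6v0a1 UMI (0.680 to 1.47) in the Klk7 cluster and 1.81 (1.56 to 2.09) in the cycling cluster.

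In the macrophage-like cells Tcirg1 had the narrowest range, and the wide range of Atp6v0a2 rested on 1 cluster. Over the 6 clusters of more than 100 cells Tcirg1 ran from 92.5 to 149 CPM, a 1.61-fold range (1.25 to 2.06). Atp6v0a2 ran from 8.01 to 48.8 CPM, a 6.09-fold range (3.11 to 13), and Atp6v0a1 from 7.43 to 20.7 CPM, a 2.78-fold range (1.28 to 7.19). The intervals of these 2 ranges overlapped. Without the cluster at 8.01 CPM, which held 11 Atp6v0a2 UMIs, Atp6v0a2 ran from 25.4 to 48.8 CPM. The ranges compare extremes chosen after their values were seen, and their intervals do not allow for that choice. Both high ends of Atp6v0a2 and Tcirg1 belonged to 122 cells led by the interferon-induced genes Ifit3 and Rsad2. In that cluster Atp6v0a2 stood 1.74-fold (1.25 to 2.38) and Tcirg1 1.33-fold (1.11 to 1.59) above the other macrophage-like cells, and Atp6v0a1, with 7 UMIs, was at its lowest. Atp6v0a1 was highest among the larger clusters in 245 cells led by Lyz1 and the protease gene Ctsd, at 20.7 CPM (16.0 to 26.3), 1.58-fold (1.16 to 2.13) above the rest. A small cluster of 26 cells led by Retnla and by Lyve1, a marker of resident tissue macrophages, held 7 Atp6v0a1 UMIs or 41.4 CPM (16.6 to 85.3).

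The low end of Atp6v0a2, singled out after its value was seen, was a cluster of 118 cells. It was led by Mmp12, a macrophage elastase, and Hmox1, the haem-degrading oxygenase. It held 11 UMIs of Atp6v0a2, 18 of Atp6v0a1 and 127 of Tcirg1. Atp6v0a2 stood 3.97-fold lower there than in the other macrophage-like cells (2.19 to 8.01), Tcirg1 1.26-fold lower (1.05 to 1.52) and Atp6v0a1 at a ratio of 0.873 (0.506 to 1.42). Tcirg1 thus held 81.4% of the a-subunit UMIs (74.4 to 87.2). The odds of Tcirg1 against Atp6v0a2 were 2.74-fold to 3.78-fold higher in this cluster than in each of the other 5 large macrophage-like clusters, with intervals that excluded 1, whereas no pair among those 5 had such an interval. These odds use the same 11 Atp6v0a2 UMIs for which the cluster was singled out, and the intervals do not allow for that choice.

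**Figure D3:**
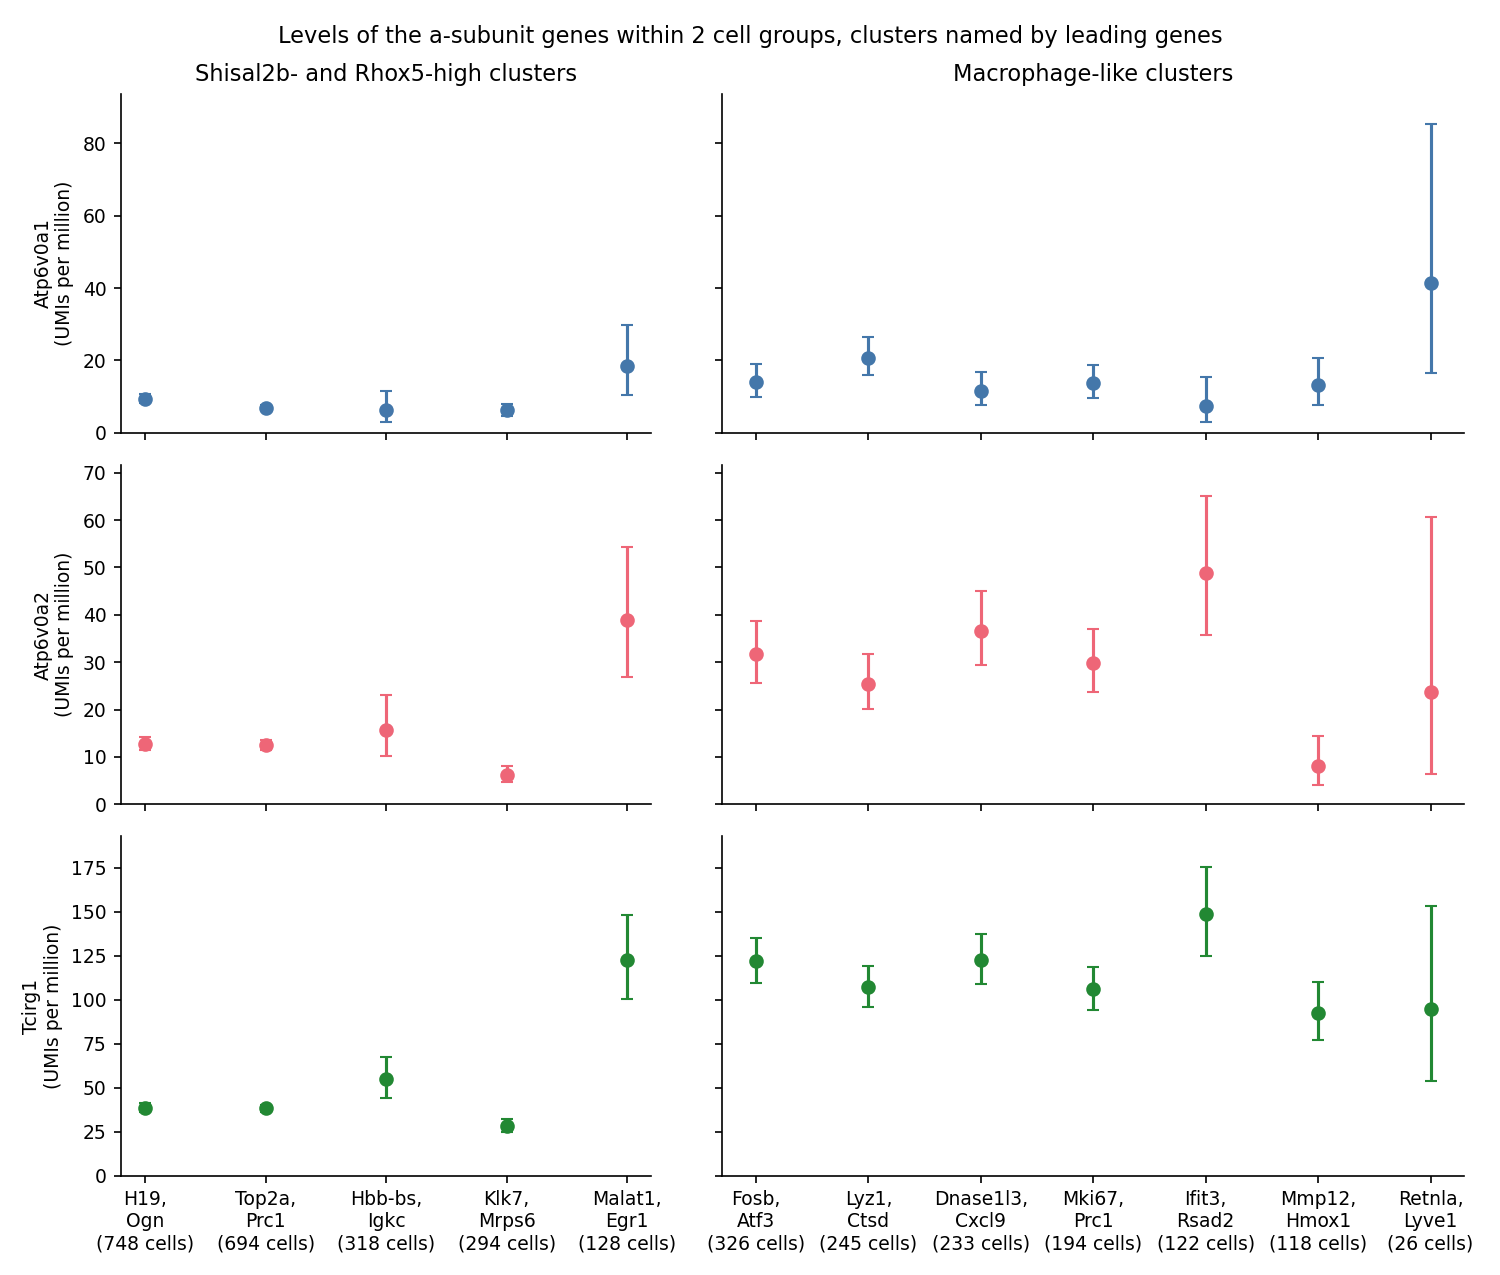
Levels of Atp6v0a1 (top), Atp6v0a2 (middle) and Tcirg1 (bottom) in UMIs per 1000000 (y axes, linear and from 0, shared within a row) for the 5 clusters of Shisal2b- and Rhox5-high cells (left) and the 7 macrophage-like clusters (right), named by leading genes, with exact 95% Poisson intervals. The Malat1 and Egr1 cluster is high in all 3 genes (18.3, 38.9 and 122), and the Mmp12 and Hmox1 cluster is low in Atp6v0a2 (8.01).

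The Mmp12 and Hmox1 cluster also differed in other subunits of the pump. Atp6v0d2, the alternative d subunit known from osteoclasts and fused macrophages, was counted 80 times in macrophage-like cells, and 57 of these UMIs (71.25%) lay in this cluster, which held 9.97% of the group's UMIs. Its level there was 22.4-fold that of the other macrophage-like cells (13.6 to 38.0). Atp6v1a, the catalytic subunit, stood 2.81-fold (2.49 to 3.16) and Atp6v1c1, which links the stalks of the V1 sector, 2.80-fold (2.35 to 3.33) higher. Of the 19 V-ATPase genes with at least 50 UMIs in macrophage-like cells, these 3 were at least 2-fold higher and Atp6v0a2 alone was at least 2-fold lower. The cluster was singled out for its low Atp6v0a2, so the place of that gene among the lower ones follows from the choice. Over all 9617 genes with as many UMIs, 3.47% were at least 2-fold higher and 16.5% at least 2-fold lower in this cluster. Smaller ratios with intervals above 1 brought the number of higher genes to 9, and Atp6v0a2 and Tcirg1 were the 2 with intervals below 1, where over all genes 9.93% had an interval above 1 and 30.5% one below it.

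**Figure D4:**
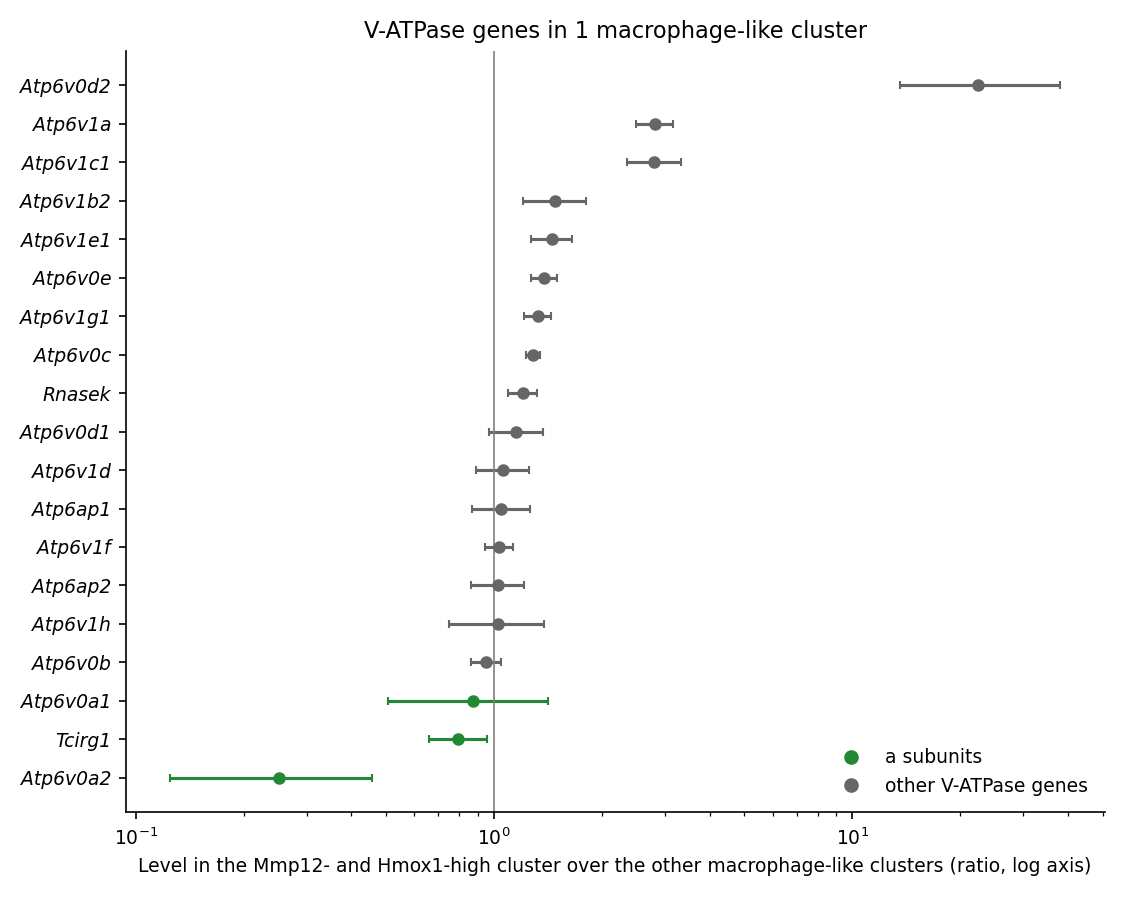
Ratio of the level in the Mmp12 and Hmox1 cluster (118 cells) to that in the other macrophage-like cells (x axis, log scale) for 19 V-ATPase genes, with exact 95% intervals and the a subunits in green. Atp6v0d2 stands at 22.4 and Atp6v0a2, for whose low level the cluster was singled out, is the lowest at 0.252.

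An unnamed myeloid cluster of 247 cells, led by Gm26917 and Lars2, held 273 CPM of Tcirg1 (235 to 316) and 24.3 CPM each of Atp6v0a1 and Atp6v0a2, and Tcirg1 made up 84.9% of its a-subunit UMIs. These cells were shallow, with a median of 2056 UMIs, and held 36355 CPM of Malat1. Macrophage markers were raised in them but were not among their leading genes, so the naming rule for shallow clusters left them unnamed. Counting the unnamed myeloid cells as macrophage-like, also added once the data had been seen, put the macrophage-like Tcirg1 share at 73.2%.

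The endothelial-like and granulocyte-like groups were too small to place. In 31 endothelial-like cells 8 UMIs of Atp6v0a2 (85.7 CPM, 37.0 to 169), 3 of Tcirg1 and 1 of Atp6v0a1 were counted. In 68 granulocyte-like cells, whose leading genes included airway genes such as Scgb1a1, 3 UMIs of Atp6v0a1 and 1 each of Tcirg1 and Atp6v0a2 were counted.

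The rest of the pump was compared between macrophage-like and Shisal2b- and Rhox5-high cells, where 19.2% of 12556 genes with at least 50 UMIs were at least 2-fold higher and 27.9% at least 2-fold lower in macrophage-like cells. Tcirg1 and Atp6v0a2 passed the 2-fold line and Atp6v0a1 did not. Of the V1 subunits, which form the ATP-splitting part, 3 of the 9 with enough UMIs (13 were listed) were at least 2-fold higher and 0 lower, with a median ratio of 1.84 against 0.828 over all genes. They were Atp6v1a at 2.67-fold, Atp6v1b2, the widespread form of the B subunit, at 2.52-fold, and Atp6v1g2, on 53 UMIs, at 2.24-fold. Of the other V0 and accessory subunits 3 of 8 (9 were listed) were higher and 0 lower, with a median of 1.83. They were Atp6v0c, the proton-carrying ring subunit, at 3.99-fold, Atp6ap2, the prorenin receptor, at 3.81-fold, and Atp6v0d2, with 80 UMIs against 3, at 152-fold (50.1 to 751). The 3 detected a subunits had a median of 2.41, with Tcirg1 and Atp6v0a2 among the 7 highest of the 20 subunit genes.

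**Figure D5:**
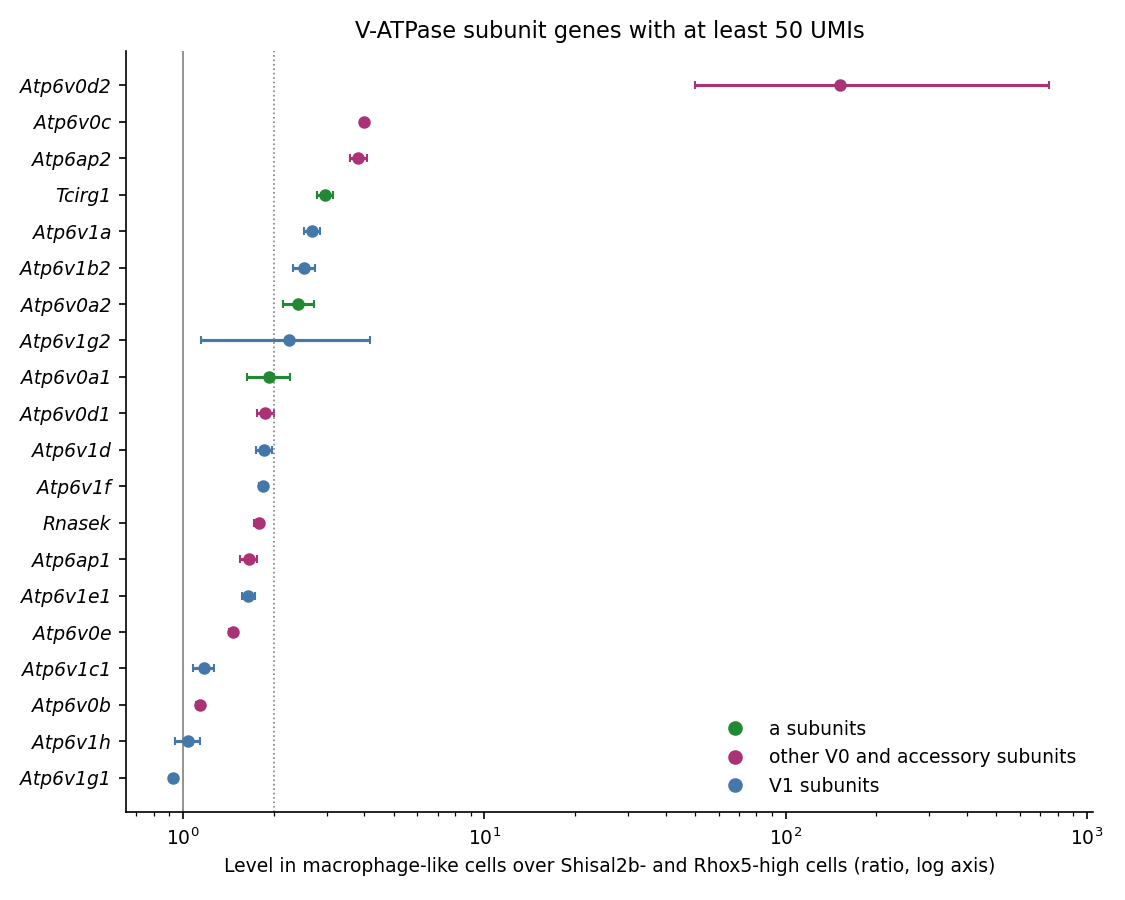
Ratio of the level in macrophage-like to that in Shisal2b- and Rhox5-high cells (x axis, log scale) for the V-ATPase subunit genes with at least 50 UMIs, with exact 95% intervals, a solid line at 1 and a dotted line at 2. Tcirg1 (2.96) and Atp6v0a2 (2.41) lie right of the dotted line and Atp6v0a1 (1.92) just left of it.

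The a subunits were not the only pump subunits with tissue-restricted relatives. The other restricted forms were nearly absent, except for Atp6v0d2 in macrophage-like cells. Atp6v1b1, Atp6v1c2 and Atp6v1e2 had 0 UMIs in the 6 groups, Atp6v1g3 had 1 and Atp6v0e2 at most 1 in each. Atp6v0d2 made up 5.71% of the d-subunit UMIs in macrophage-like cells (4.55 to 7.05), 0.0749% in Shisal2b- and Rhox5-high cells and 0 elsewhere, against its partner Atp6v0d1. Atp6v1g2 made up 0.123% to 2.34% of its pair with Atp6v1g1 where it was counted, in all groups but the dendritic-like. The sum of the a-subunit UMIs relative to the d-subunit UMIs was 1.14 (1.09 to 1.19) in Shisal2b- and Rhox5-high, 1.55 (1.45 to 1.66) in macrophage-like, 1.53 (1.21 to 1.93) in monocyte-like, 1.38 (0.900 to 2.15) in T and NK-like and 0.80 (0.514 to 1.24) in fibroblast-like cells. It was highest in dendritic-like cells, at 1.83 with a wide interval (1.07 to 3.18).

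Genes that act with the pump moved in the same comparison to different degrees. Of the assembly and regulatory factors 6 of 10 (12 were listed) were at least 2-fold higher in macrophage-like cells and 0 lower, with a median of 2.21. Dmxl2 and Wdr7, which form the rabconnectin complex that joins V1 to V0, stood at 12.1-fold and 2.70-fold, and their partner Rogdi at 3.38-fold. The lowest were Vma21 and Tmem199, chaperones of V0 assembly in the endoplasmic reticulum, at ratios of 0.533 and 0.534, and Oxr1 at 0.977. Of the lysosome genes 23 of 28 were higher and 2 lower, with a median of 4.32, so the a subunits lay below the median of that list. The highest were Mitf, a transcription factor of lysosome genes, at 13.2-fold and Psap, the saposin precursor, at 12.8-fold. The cathepsin gene Ctsl, at 0.368, and the lysosomal tetraspanin gene Cd63, at 0.470, were lower, and the glucosidase gene Gaa stood at 0.542. Of the osteoclast genes 5 of 11 had enough UMIs. Acp5, tartrate-resistant acid phosphatase, stood at 161-fold, Tnfrsf11a, the receptor RANK, at 80.0-fold and Nfatc1 at 6.08-fold, whereas the gelatinase gene Mmp9 stood at 0.113.

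The same lists were read in the other groups. Between monocyte-like and macrophage-like cells 1.81% of genes were at least 2-fold higher and 10.3% lower in monocyte-like cells, and none of the 3 a subunits was among them. Of the lysosome genes 8 of 28 were lower and 0 higher, of the V0 genes Atp6v0d2 was lower, with 0 UMIs, which allows up to 2.21 CPM, against 5.81 CPM, and the 8 measured V1 genes all lay within 2-fold. Between T and NK-like and Shisal2b- and Rhox5-high cells the background was 17.1% higher and 21.3% lower in T and NK-like cells. Atp6v0a2 was higher, at 3.26-fold, Atp6v0a1 lower and Tcirg1 within 2-fold, while the 8 measured V1 genes lay within 2-fold and Atp6v0b, a ring subunit, stood at 0.479. Between fibroblast-like and Shisal2b- and Rhox5-high cells the background was 20.8% higher and 9.78% lower in fibroblast-like cells. Atp6v0a2 was higher at 3.51-fold, and it was the only subunit gene of the pump with enough UMIs that passed 2-fold in either direction there. The V0 gene Atp6v0d1 lay just under that line at 1.99-fold (1.48 to 2.63). The Atp6v0a2 ratio fell under 2 with cells weighted equally or grouped by single markers, as given above.

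Over the 22 clusters the genes nearest to each member differed. Pearson's correlation of log2(CPM + 10) over clusters was computed with 10999 genes of at least 200 UMIs, as a description, since the clusters share 1 library and differ in depth. The genes nearest to Tcirg1 were Stard9 (0.932), Clcn7 (0.874), Adam17 (0.874), Rhbdf2 (0.855) and Uhrf1bp1 (0.847). Those nearest to Atp6v0a2 were Vgll4 (0.894), Tbc1d1 (0.879), Casp2 (0.859), Trim12c (0.857) and Itpr1 (0.857), and those nearest to Atp6v0a1 were Klf3 (0.881), Slc35a5 (0.860), Fam91a1 (0.845), Myo5a (0.840) and Zfp608 (0.834). The correlations between the members were low, with 0.0516 between Atp6v0a1 and Atp6v0a2, 0.363 between Atp6v0a1 and Tcirg1 and 0.320 between Atp6v0a2 and Tcirg1. Clusters counted equally, and some held few UMIs of a member. The highest Atp6v0a1 level, 50.5 CPM, rested on 3 UMIs of the granulocyte-like cells. The part of counting error in these correlations and in the nearest genes was not tested. With the nuclear RNA Malat1 the values were 0.265 for Atp6v0a1, 0.436 for Atp6v0a2 and 0.435 for Tcirg1.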

How the data were processed

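The authors deposited raw UMI counts per gene and called cell, made with Cell Ranger from 10x 3' v3.1 reads on GRCm38/mm10. The file header names version 5.0.1, while the methods name V3. The members and the gene lists were chosen with earlier results of these data known. Cells with fewer than 200 genes or over 20% mitochondrial UMIs, 667 in all, were removed. Likely doublets were removed at 0.8% per 1000 cells, by the share of simulated doublets among a cell's neighbours. Counts scaled to 10000 per cell and log-transformed gave 2000 variable genes without V-ATPase genes, 30 principal components, a graph of 20 neighbours and Leiden clusters at resolution 0.5. Myeloid cells were clustered again at resolution 1 with 2000 variable genes and 20 components. The other classes of cells were clustered again with 1000 variable genes, 15 components and resolution 0.5. A cluster was named for a type where at least 3 of its fixed markers had at least 5 UMIs and 2-fold the level of other cells. No other type could have more markers among the cluster's 10 leading genes. A shallow cluster, with a median depth under that of the kept cells divided by 3, also needed a marker of its type among those genes. The group high in Shisal2b and Rhox5 had at least 5-fold the level of both in myeloid cells. These naming rules took their final form after the clusters had been seen, and names may differ from those of the study. Kept cells held 511 to 231902 UMIs.

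Levels were summed UMIs per 1000000 of a group. Intervals at 95% were exact Poisson for levels, Clopper-Pearson for shares, conditional binomial for ratios and exact conditional for odds ratios. They cover counting error only, and counts of 0 allow up to 3. With 1 library no p-value was computed. Named from each assembly, lysosome or osteoclast list were the 3 largest ratios in each direction among genes of at least 100 UMIs, except for a gene that is not reported here. From the pump's subunits, genes with a paralog and those 2-fold apart were named. Clusters and comparisons were singled out after their values were seen. The scripts were tested on simulated data. Alternatives were limits of 10% or no mitochondrial limit, 500 genes, doublets kept, 3000 variable genes, 20 components, resolutions 0.3 and 1, another seed, single-marker groups, means over cells, thinning to 1000 or 2000 UMIs, and minimums of 20 or 200 UMIs. Further alternatives left out single clusters, changed the second clustering or named the unnamed myeloid clusters. Clustering used leidenalg 0.10.2 and igraph 0.11.9, statistics scipy 1.17.1, and the remaining steps scikit-learn 1.9.0, pandas 2.3.3, numpy 2.4.6 and matplotlib 3.10.9 in Python 3.11.15.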

Additional observations from a re-analysis of the deposited data

How the results depend on the processing

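Of 45 ratios between groups or members, the 28 with intervals that excluded 1 turned in none of 476 values under the alternatives. Those values include Tcirg1 against Atp6v0a1 in fibroblast-like cells thinned to 1000 UMIs, which had no direction because neither gene was counted. Of the other 17 ratios, 12 turned in 29 of 289 values. Among these, Tcirg1 against Atp6v0a2 turned from 0.656 to 1.82 (single markers), 1.20 (mean over cells) and 1.20 (thinned to 1000 UMIs) in T and NK-like cells and from 0.810 to 2.91 (single markers), 1.86 (mean over cells) and 1.11 (no mitochondrial limit) in fibroblast-like cells. Tcirg1 against the Shisal2b- and Rhox5-high level turned from 0.678 to 1.17 (single markers) and 1.04 (mean over cells) in T and NK-like cells and from 0.900 to 1.27 (single markers) in fibroblast-like cells. Levels left their counting interval in 14 of 85 values for Tcirg1, 7 for Atp6v0a2 and 4 for Atp6v0a1. The Tcirg1 share stayed within its counting interval in 76 of 85 values, the macrophage-like over Shisal2b- and Rhox5-high ratio in 41 of 51 and the numbers of genes 2-fold apart within 1.5 times in 13 of 16. The exceptions for the share were 59.9% (T and NK) and 65.4% (fibroblast) in groups from single markers, 69.4% (Shisal2b- and Rhox5-high), 54.4% (T and NK-like) and 62.6% (fibroblast-like) as means over cells, and 68.5% (Shisal2b- and Rhox5-high), 69.4% (macrophage-like), 54.5% (T and NK-like) and 0% (fibroblast-like, on 1 UMI of Atp6v0a2) after thinning to 1000 UMIs. For the ratio they were 3.36 for Tcirg1 at the 10% mitochondrial limit, 2.83 for Atp6v0a2 at resolution 0.3, 1.57, 1.99 and 2.20 (Atp6v0a1, Atp6v0a2, Tcirg1) in groups from single markers, 1.55, 2.13 and 2.27 as means over cells, and 1.91 (Atp6v0a2) and 1.99 (Tcirg1) after thinning. Between monocyte-like and macrophage-like cells 176 genes were higher and 1008 lower, against 330 higher with at least 20 UMIs, and 72 higher and 403 lower with at least 200. Macrophage-like cells numbered 632 to 1437 over the settings of clustering and filtering. The causes were not tested. Of the fibroblast group from single markers 82.2% were Shisal2b- and Rhox5-high cells. No paired analysis was possible because there was 1 library. The T and NK-like, dendritic-like and fibroblast-like results rest on 40 to 54 a-subunit UMIs, which limits their precision.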
